A study of Homo sapiens with 8 samples.

Results

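Tubulins, keratins, actins and the motor proteins that move along microtubules and actin filaments were followed between sorted cell fractions that differ in their permeability to lactic acid. Members were chosen by gene symbol from the deposited table: symbols starting with TUB, KRT and a digit, ACT with A, B, C, G, N or R, KIF, KLC, DYNC or DYNL, DNAH, MYO and a digit, MYH, MYL or MAP1, and the tropomyosins TPM1 to TPM4. The rule found 45 of the 3666 genes in the table. The choice used no measured value of its own, but the table itself holds only genes that the authors called different between the fractions, so every member had already passed a threshold on these libraries. Symbols that the table does not hold were not analysed here. Some members carry a matching symbol without being filament or motor genes: TUB encodes tubby, a phosphoinositide-binding protein, MYLIP encodes a ubiquitin ligase that targets the LDL receptor, and MAP1LC3A and MAP1LC3B encode autophagosome proteins first found with microtubules.

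The cells were MIA PaCa-2, an established human line from pancreatic ductal adenocarcinoma, with the genotype labelled WT and the treatment labelled None. All of them, in both fractions, were briefly exposed to medium containing lactate and then washed for the sort. The fractions are the extremes of 1 line and are called PHLac-low and PHLac-high, and messenger RNA of each was sequenced in 4 repeats, so that 4 PHLac-low and 4 PHLac-high libraries form 4 pairs. Values are normalised counts, that is, read counts divided by 1 size factor per library. The series description states the pairing. It does not say that repeats came from separately grown cultures, so p-values measure the spread between these samples only.

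Microtubules are polymers of alpha and beta tubulin pairs that grow from rings of gamma tubulin, and kinesins and dyneins carry cargo along them or move chromosomes on the mitotic spindle. Actin filaments are built from actin, branched by the Arp2/3 complex, stiffened by tropomyosin and cross-linked by alpha actinin, and myosins pull on them or carry cargo along them. Keratins form the intermediate filaments of epithelial cells, and their pattern of expression is widely used to type pancreatic ductal tumours.

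Promoter sequences are shown for 2 pairs of related genes on which the results turn: the neighbouring beta tubulin genes TUBB2A and TUBB2B, which had the highest fold changes among the tubulins with more than 100 normalised counts, and the class I myosin genes MYO1E and MYO1D, which moved in opposite directions. The sequences are the 250 bases before the annotated start of each gene, from RefSeq on GRCh38.p14, written 5′ to 3′ on the gene's own strand, which is the minus strand for all 4. RefSeq promoters were found for 35 of the 45 members. They lie at chr6:3157545-3157794 for TUBB2A, chr6:3227654-3227903 for TUBB2B, chr15:59372872-59373121 for MYO1E and chr17:32877125-32877374 for MYO1D. Capitals mark matches to TATAAA (the TATA box), TGACGTCA (the cAMP response element), CCAAT or its reverse complement ATTGG (the CCAAT box), and the CArG box, the element read by serum response factor.

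TUBB2A: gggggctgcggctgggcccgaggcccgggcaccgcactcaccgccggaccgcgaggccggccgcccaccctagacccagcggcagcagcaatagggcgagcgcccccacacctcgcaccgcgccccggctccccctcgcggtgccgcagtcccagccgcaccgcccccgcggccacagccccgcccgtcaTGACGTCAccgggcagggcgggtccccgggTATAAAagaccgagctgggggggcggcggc
TUBB2B: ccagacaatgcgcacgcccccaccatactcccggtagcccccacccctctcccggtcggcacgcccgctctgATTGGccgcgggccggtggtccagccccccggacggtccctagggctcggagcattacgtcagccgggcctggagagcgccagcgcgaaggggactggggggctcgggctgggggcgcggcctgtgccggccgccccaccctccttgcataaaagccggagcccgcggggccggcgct
MYO1E: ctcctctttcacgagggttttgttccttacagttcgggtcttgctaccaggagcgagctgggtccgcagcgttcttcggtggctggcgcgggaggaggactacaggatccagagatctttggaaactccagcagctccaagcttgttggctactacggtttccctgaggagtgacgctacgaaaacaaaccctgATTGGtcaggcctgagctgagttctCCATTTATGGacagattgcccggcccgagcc
MYO1D: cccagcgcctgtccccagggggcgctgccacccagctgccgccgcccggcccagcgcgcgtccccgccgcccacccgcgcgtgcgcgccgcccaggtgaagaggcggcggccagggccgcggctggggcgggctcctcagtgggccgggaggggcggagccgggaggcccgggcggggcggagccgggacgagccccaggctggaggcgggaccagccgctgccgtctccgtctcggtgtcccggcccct

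The TUBB2A window held a TATA box at bases -30 to -25 and a cAMP response element at -60 to -53, counted back from the start of the gene, and it held no CCAAT box. The TUBB2B window held a CCAAT box at -178 to -174 and none of the other marked motifs. The MYO1E window held a CArG box at -31 to -22 and a CCAAT box at -56 to -52, and the MYO1D window held no match to these 4 motifs. All motifs were searched on both strands, in a single window per gene. Among all 27305 RefSeq promoter windows of this length, 33.04% held a CCAAT box, 11.13% held TATAAA, 1.765% held TGACGTCA and 1.143% held a CArG box. Of the 35 member windows, 16 held a CCAAT box, among them TUBA1A, TUBA1C, TUBB2B and TUBB4B. TATAAA was found in 2 (TUBB2A and KRT10), TGACGTCA in 2 (TUBB2A and MYL5), and the CArG box in 3 (TUBG2, TPM4 and MYO1E). The CArG match of TUBG2 starts at the same base as its CCAAT match. The GC box (GGGCGG), the heat shock element core and the E box CACGTG were also searched but are not marked. The GC box was in 24 of the 35 member windows (68.57%, against 42.31% of all windows), among them TUBB2A, TUBB2B and MYO1D. The heat shock element core was in 1 (TUBA1C) and CACGTG in 3, against 5.849% and 6.49% of all windows. A match is a description of the letters only. Other starts of a gene were not searched, so a gene without a match, such as ACTA2 for the CArG box, may hold the motif elsewhere. The TUBB2A and TUBB2B windows were 56.4% identical, whereas the longest coding frames of the 2 genes differed at 25 of 1338 bases (98.13% identical).

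Of the 45 members, 28 were higher and 17 lower in PHLac-high in limma on log2(normalised count + 1) with the repeat as a block, at an adjusted p below 0.05. Among all 3666 listed genes the shares were 58.7% higher and 41.2% lower, against 62.2% and 37.8% of the members, so the split of the members was close to that of the table. The median log2 change of the members was 0.26, and that of all listed genes was 0.25. Each library was also scaled by its upper quartile over listed genes in place of the authors' size factors. That lowered the median of all listed genes by 0.22 to 0.02. Then 14 members passed as higher and 17 as lower, and 2360 of the 3666 listed genes passed in either direction. By sign of the estimate alone, 25 members were higher and 20 lower, beside 1984 and 1682 of all listed genes. DYNC1LI1, ACTR3 and TPM4 changed direction under that scaling. A log2 change near 0.25 therefore lies at the middle of the listed genes, and changes are also given relative to that median where it matters. The median and that scaling rest only on genes the authors called, so neither marks a level of no change. A call lost or a direction reversed under upper quartile scaling does not show that a gene was unchanged.

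With a minimum log2 change of 0.5, 12 members were higher and 8 lower (background 19.5% higher and 19.4% lower). With a minimum of 1 there were 6 higher and 1 lower, against a background of 5.86% and 5.21%. The 6 were TUBA8, TUBB2A, KRT32, ACTBL2, MYLIP and MYLK2, and the 1 was MYO1D. Of the 6, 4 had a mean below 100 normalised counts. The direction was the same in all 4 repeats for 44 members, 27 higher and 17 lower. It was also the same for 3522 of the 3666 listed genes. KRT19 was the exception, with a change of -0.01 in repeat 3. The 4 values of one fraction lay entirely above or below the 4 of the other for 8 members that were higher and 7 that were lower, against a background of 23.3% and 13.4% of the listed genes. Without the repeat as a block, limma called 9 members higher and 6 lower, against 20.3% and 10.7% of the listed genes. In bulk samples, fewer cells of a kind and less RNA per cell cannot be told apart.

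**Figure D1:**
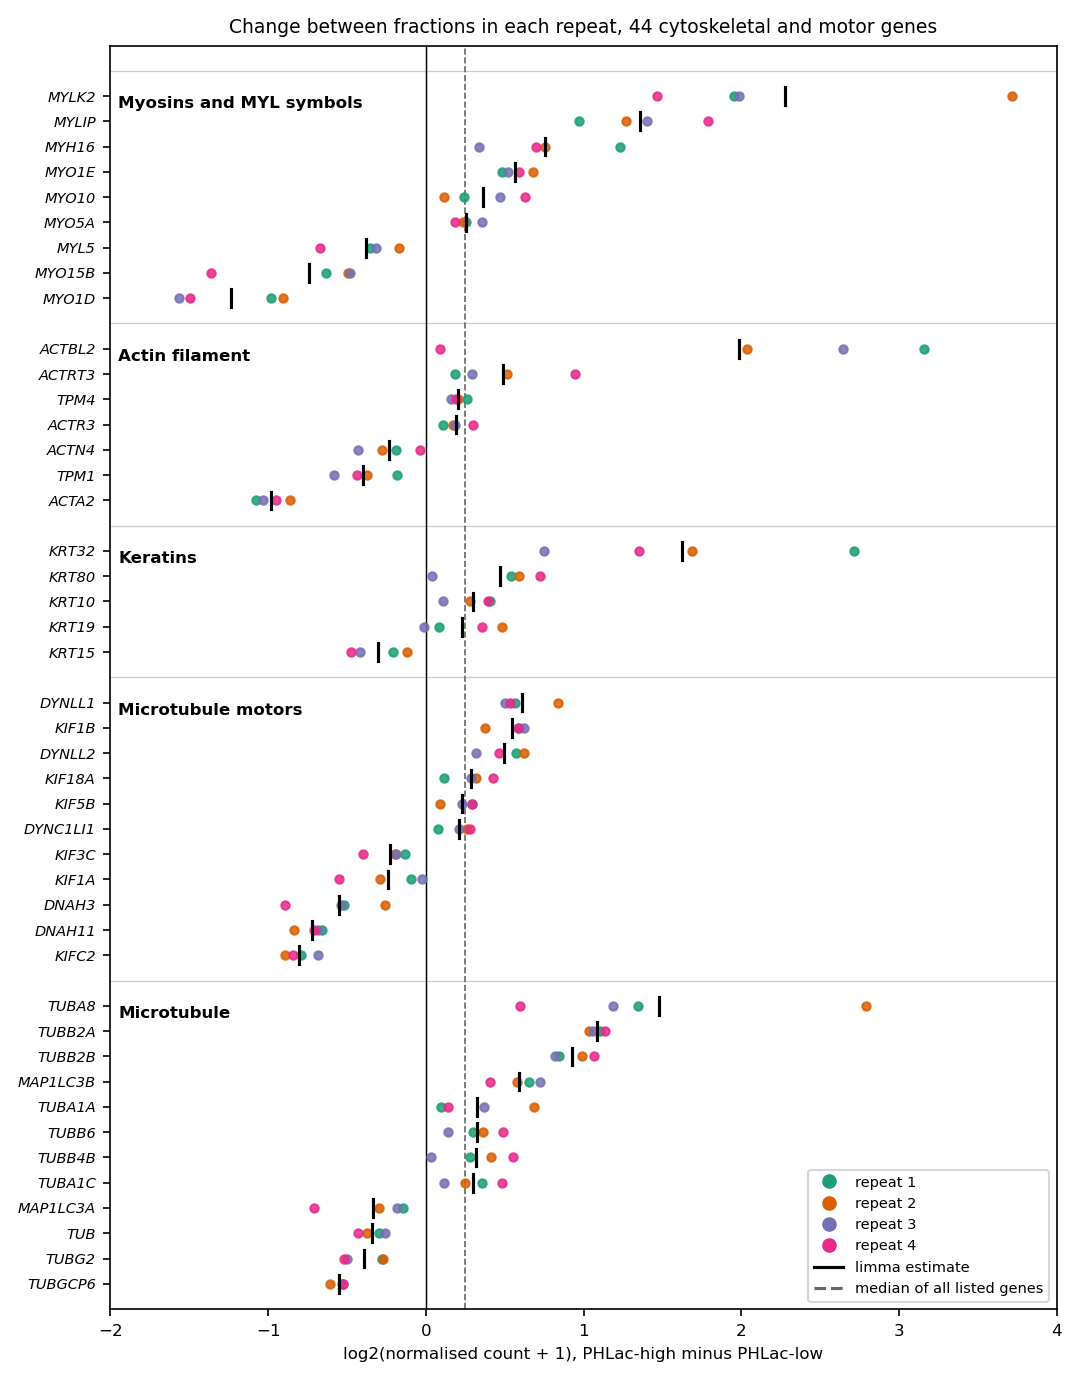
Change in log2(normalised count + 1) from PHLac-low to PHLac-high for 44 of the 45 genes, grouped by filament or motor system. Each point is 1 repeat, the black bar is the limma estimate, and the dashed line is the median of all listed genes, 0.25. Points of one gene fall on one side of 0 for every gene drawn except KRT19. Genes beside the dashed line changed as the middle of the table did, and DYNC1LI1, ACTR3 and TPM4 fall just below 0 under upper quartile scaling.

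The repeats differed in ways that touch many members. Read numbers were estimated from the steps between values, and 4 of the 8 libraries held too few low values to check the step. Estimated reads in the listed genes ranged from 8979276 to 23176205 per library, which is part of each library and not its depth. On the first principal component, with 54.7% of the variance, the PHLac-low library of repeat 4 stood at -6.88 and the other PHLac-low libraries between -25.9 and -24.4. The PHLac-high library of repeat 4 stood at 33.4 and the other PHLac-high libraries between 14.1 and 18.5, so both libraries of repeat 4 were displaced in the same direction. Without repeat 4, 27 members were higher and 16 lower, with KIF1A and KRT19 lost from the calls, and 3627 of the 3666 listed genes passed in either direction. The 18 of 19 heat shock genes in the table were all higher, against 58.7% of all listed genes. The 18 had a median log2 change of 0.78. HSPA6 rose 56.2-fold by the limma estimate, from 35.2, 87.4, 170 and 498 normalised counts in PHLac-low in repeats 1 to 4. Its log2 changes in those repeats were 7.56, 6.98, 5.02 and 3.69. Of the markers of cells that a single line should lack, no endothelial gene of 4 is in the table, and of 5 leucocyte genes PTPRC was lower (log2 change -1.36) and CD68 and CD14 were higher (0.55 and 0.47). The summed count of these 3 leucocyte genes ran from 1522 to 3403 in PHLac-low and from 1591 to 5276 in PHLac-high, and none of the 3 was at 0 in any library. The part of these in the members' changes was not tested. Of 9 epithelial markers, KRT19 and CLDN7 are in the table. KRT19, a defining keratin of pancreatic duct cells, stood at 17367 ± 3619 (SD, n = 4) normalised counts in PHLac-low, while CLDN7, a tight junction claudin, stood at 96.4 ± 53.2 (SD, n = 4). KRT19 was higher in PHLac-high (log2 change 0.23) and CLDN7 lower in all 4 pairs (-0.88 ± 0.18 SE, limma adjusted p = 0.00268).

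All 7 alpha and beta tubulin genes in the table were higher in PHLac-high, against 58.7% of all listed genes. The 7 had a median log2 change of 0.32 and a range of 0.30 to 1.48. Their summed normalised count rose in every pair, by ratios of 1.31, 1.38, 1.15 and 1.51 in repeats 1 to 4. Under upper quartile scaling all 7 still had a positive estimate with a median of 0.10, but TUBA1A, TUBA1C, TUBB4B and TUBB6 no longer passed. The tubulin changes separate into TUBB2A, TUBB2B and TUBA8, which exceeded the median of the table by 0.68 or more on the log2 scale, and the other 4 genes, which exceeded it by 0.08 or less.

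TUBB2A, a class II beta tubulin, had 5237, 3587, 2524 and 10302 normalised counts in PHLac-low in repeats 1 to 4 and 11268, 7342, 5258 and 22624 in PHLac-high. The ranges of the fractions overlapped because the repeats differ widely in level, yet the gene was about doubled in each of the 4 pairs, with log2 changes of 1.11, 1.03, 1.06 and 1.13. The limma estimate was 1.08 (log2 change, SE 0.05, adjusted p = 1.24e-05), and without the block the adjusted p was 0.0976. Its neighbour TUBB2B, another class II beta tubulin linked to neuronal migration, was found at 726, 485, 354 and 1229 normalised counts in PHLac-low and at 1303, 963, 624 and 2572 in PHLac-high. It was higher in each pair, and its limma estimate was 0.93 (log2 change, SE 0.08, adjusted p = 7.47e-05). The order of the repeats was the same for both genes in both fractions: repeat 4 highest, then 1, 2 and 3. Normalised counts per kilobase of the longest coding transcript gave TUBB2A a level 9.54 ± 0.729 times that of TUBB2B in PHLac-low and 10.6 ± 0.663 times in PHLac-high. The ratio was higher in PHLac-high in all 4 pairs, and the ranges of the fractions overlapped. Of the 75-base windows of TUBB2A, 60.4% occur in another gene, mostly TUBB2B, so short reads could have been split between the pair and their values are not independent. The genes lie 66.7 kb apart on chromosome 6.

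TUBB4B, the beta tubulin with the highest level of all members per kilobase (14469 ± 4878 for PHLac-low, 18633 ± 8355 for PHLac-high, SD over 4 repeats), had 27370.1, 16488, 17705 and 33182 normalised counts in PHLac-low and 33297, 21997, 18112 and 48602 in PHLac-high. Repeat 3 hardly moved (log2 change 0.03) and the others rose by 0.28 to 0.55, and the fractions overlapped. The limma estimate was 0.32 (log2 change, SE 0.08, adjusted p = 0.00559). TUBB6, a class V beta tubulin, ran from 5668 to 9629 in PHLac-low and from 6289.9 to 13508 in PHLac-high, with a limma estimate of 0.32 (log2 change, SE 0.06, adjusted p = 0.00238). Relative to TUBB2A, TUBB4B went from 4.89 ± 1.53 to 2.81 ± 0.526 per kilobase. That ratio was lower in PHLac-high in all 4 pairs, although the ranges of the fractions overlapped.

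Among alpha tubulins, TUBA1C had the highest level per kilobase, and its values were 15757, 11363, 10388 and 23866 normalised counts in PHLac-low and 20188, 13489, 11256 and 33294 in PHLac-high. Repeat 4 was highest in both fractions, and the fractions overlapped, with a limma estimate of 0.30 (log2 change, SE 0.07, adjusted p = 0.00332). TUBA1A, the main alpha tubulin of developing neurons, ran from 2612 to 5968 in PHLac-low and from 4201 to 6389.8 in PHLac-high, with a limma estimate of 0.32 (log2 change, SE 0.10, adjusted p = 0.01). These 2 genes lie 38.8 kb apart on chromosome 12 and their coding frames are 96.02% identical. Of their 75-base windows, 27.1% for TUBA1A and 17.0% for TUBA1C occur in another gene, so their counts are uncertain to that extent. TUBA8, a divergent alpha tubulin, was at 20.6, 6.15, 23 and 15.4 normalised counts in PHLac-low and 53.8, 48.6, 53.7 and 23.8 in PHLac-high, an estimated 5 to 48 reads. The fractions did not overlap, by less than 1 normalised count, and the limma estimate was 1.48 (log2 change, SE 0.38, adjusted p = 0.00574). Of its longest transcript, 65.7% of windows lie in the transcript of the neighbouring gene PEX26, which was not analysed here, so those few reads cannot be given to TUBA8 with certainty.

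**Figure D2:**
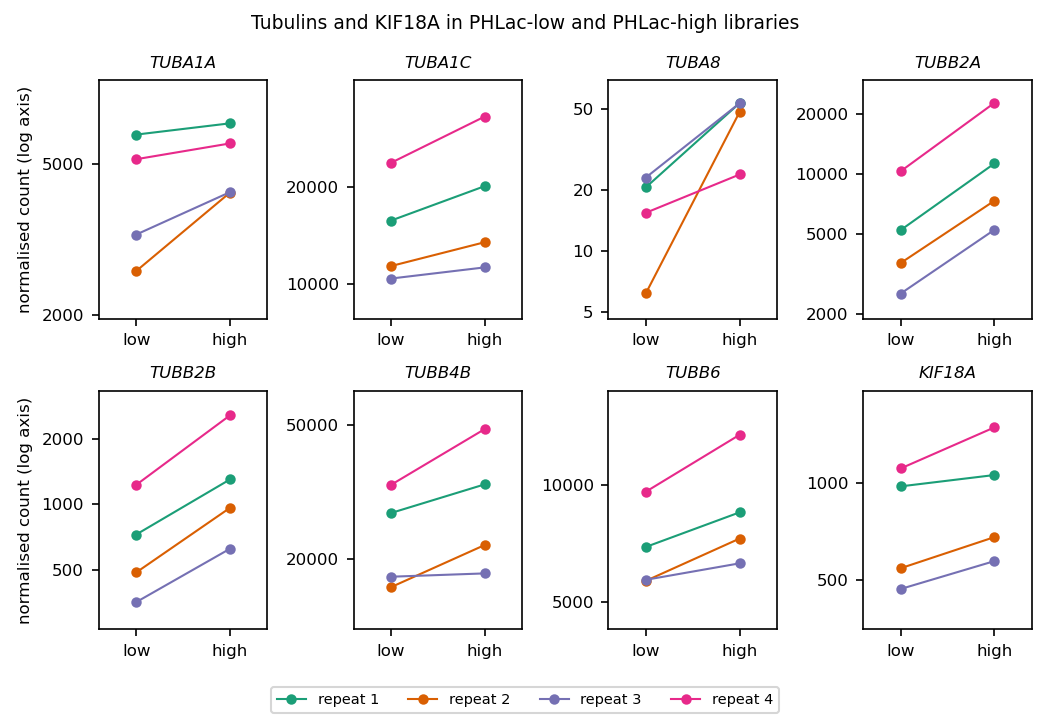
Normalised counts of the 7 alpha and beta tubulin genes and of KIF18A in PHLac-low and PHLac-high (log axis), 1 line per repeat. Every line rises. TUBB2A and TUBB2B have nearly parallel lines about 1 log2 unit in height, while repeat 4 lies highest in both fractions for TUBA1C, TUBB2A, TUBB2B, TUBB4B, TUBB6 and KIF18A.

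The 2 gamma tubulin complex genes in the table, TUBGCP6 and TUBG2, were lower, against 41.2% of all listed genes. TUBGCP6, the largest subunit of the gamma tubulin ring complex, had 1800.1, 2172, 2141 and 1841 normalised counts in PHLac-low and 1251, 1424, 1483 and 1278 in PHLac-high. All 4 PHLac-high values lay below all PHLac-low values, and the gene fell 1.46-fold (log2 change -0.55, SE 0.06, limma adjusted p = 0.000191). TUBG2, the second gamma tubulin, ran from 911 to 1071 in PHLac-low and from 637 to 885 in PHLac-high, also without overlap (log2 change -0.39, SE 0.08, limma adjusted p = 0.00257). Of its windows, 18.6% occur in another gene, TUBG1, which is not in the table. Tubby (TUB) fell as well, from 710.5 ± 48.1 (SD, n = 4) to 561 ± 13.3 (SD, n = 4) normalised counts without overlap (log2 change -0.34, SE 0.08, limma adjusted p = 0.00417). Beside the fall of TUBG2 and TUBGCP6, GC content was 58.8% and 61.4%, and after correction for GC and length their changes were -0.33 and -0.28.

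The LC3 genes of the MAP1 group, which encode the proteins conjugated to autophagosome membranes, moved in opposite directions. MAP1LC3B stood at 4538, 5199, 6474 and 4709 normalised counts in PHLac-low and 7126, 7756, 10713 and 6236 in PHLac-high. It was higher in each pair with some overlap between fractions, and the limma estimate was 0.59 (log2 change, SE 0.06, adjusted p = 0.000175). MAP1LC3A ran from 965 to 1625 in PHLac-low and from 706 to 1434 in PHLac-high, with a limma estimate of -0.33 (log2 change, SE 0.10, adjusted p = 0.0113). Per kilobase, MAP1LC3B stood at 2.42 ± 0.239 times MAP1LC3A in PHLac-low and 4.59 ± 0.504 times in PHLac-high. The 4 ratios of PHLac-high, 4.01 to 5.17, all lay above the 4 of PHLac-low, 2.19 to 2.75. Some 8.91% of the windows of MAP1LC3B occur in another gene, its copy MAP1LC3B2. The call of MAP1LC3A was lost after correction for GC content and length (-0.11).

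Of the 6 kinesins, 3 were higher and 3 lower, against 58.7% and 41.2% of all listed genes. Their median log2 change was -0.00155, and that of all listed genes was 0.25. KIF1B, which carries mitochondria and vesicles, had 3869, 3722, 3086 and 3069 normalised counts in PHLac-low and 5838, 4818, 4746 and 4610.1 in PHLac-high. Every PHLac-high value exceeded every PHLac-low value, and the limma estimate was 0.54 (log2 change, SE 0.06, adjusted p = 0.000204). KIF5B, the ubiquitous heavy chain of conventional kinesin and the kinesin with the highest level per kilobase, had 8182, 7433, 7019 and 9543 in PHLac-low and 10005, 7918, 8232 and 11707 in PHLac-high. It was higher in each pair (log2 change 0.23, SE 0.06, limma adjusted p = 0.00517), which is -0.02 relative to the median of the table, and its estimate was 0.00 under upper quartile scaling. KIF18A, a motor that dampens chromosome movements in mitosis, ran from 469 to 1110.3 in PHLac-low and from 573 to 1489 in PHLac-high (log2 change 0.29, SE 0.08, limma adjusted p = 0.00822). The call of KIF18A was lost under upper quartile scaling (0.06) and after correction for GC and length (0.05).

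KIFC2, a kinesin with its motor at the C-terminal end, had 1430.5, 1527, 1809 and 1533 normalised counts in PHLac-low and 824, 823, 1125 and 857 in PHLac-high. The fractions did not overlap, and the gene fell 1.74-fold (log2 change -0.80, SE 0.07, limma adjusted p = 7.8e-05). KIFC2 had the highest GC content of the members, 67.8%, and after correction for GC and length its change was -0.42, still past the threshold (limma adjusted p = 0.000808). KIF1A, the neuronal carrier of synaptic vesicle precursors, and KIF3C, a kinesin-2 subunit, had smaller changes of -0.24 ± 0.09 and -0.23 ± 0.07 (SE). Both lost their call after that correction (-0.04 and -0.17). KIF1A had a change of only -0.02 in repeat 3, and its call was also lost without repeat 2 or without repeat 4.

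All 3 cytoplasmic dynein genes in the table were higher (against 58.7% of all listed genes), with a median log2 change of 0.49. DYNLL1, a light chain that also serves as a dimerisation hub for many partners, had 5001, 3779.9, 4756 and 6585 normalised counts in PHLac-low and 7404, 6748, 6746 and 9545 in PHLac-high. Its paralogue DYNLL2 had 2865, 3016, 3957 and 3310.3 in PHLac-low and 4267, 4638, 4935 and 4559.8 in PHLac-high. Both genes separated the fractions without overlap, and the limma estimates were 0.61 (log2 change, SE 0.07, adjusted p = 0.000184) for DYNLL1 and 0.49 (log2 change, SE 0.07, adjusted p = 0.00038) for DYNLL2. DYNC1LI1, a light intermediate chain that links dynein to cargo adaptors, changed little (log2 change 0.21, SE 0.06, limma adjusted p = 0.012), and its estimate was -0.02 under upper quartile scaling.

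The 2 axonemal dynein heavy chains in the table, motors of beating cilia, were both lower, against 41.2% of all listed genes. DNAH11 had 734, 838, 622 and 770.3 normalised counts in PHLac-low and 465, 469, 386 and 470.01 in PHLac-high. The highest PHLac-high value, 470, lay below the lowest PHLac-low value, 622, and the gene fell 1.65-fold (log2 change -0.72, SE 0.08, limma adjusted p = 0.000194). DNAH3 was read at 196, 156, 130.4 and 139 in PHLac-low and 137, 131, 89.5 and 74.1 in PHLac-high, with overlap (log2 change -0.55, SE 0.15, limma adjusted p = 0.00771). Per kilobase both were low, at 52.3 and 12.5 in PHLac-low against 1369 for KIF5B. Of 41 other genes of ciliary motors and axonemes, 3 are in the table. FOXJ1, the master regulator of motile cilia, was higher (limma log2 change 2.52 ± 0.24, SE), as was RSPH9, a radial spoke protein (1.29 ± 0.35). IFT140, a retrograde transport subunit, was lower (-0.32 ± 0.08). RSPH9 had low counts, from 6.16 to 17.2 in PHLac-low and from 26.9 to 35.8 in PHLac-high. FOXJ1 ran from 29.5 to 66.8 normalised counts in PHLac-low and from 205 to 321 in PHLac-high.

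Of the 5 keratins, 4 were higher and 1 lower, against 58.7% and 41.2% of all listed genes. The keratins had a median log2 change of 0.30 (0.07 under upper quartile scaling). KRT19 had 22697, 15359, 14889.8 and 16524 normalised counts in PHLac-low and 24031, 21462, 14790.3 and 21154 in PHLac-high. It made up 74.9% of the summed keratin count. Its change was larger in repeats 2 and 4 (0.48 and 0.36), while repeats 1 and 3 were at 0.08 and -0.01, and the limma estimate was 0.23 (log2 change, SE 0.08, adjusted p = 0.0243). The estimate for KRT19 was 0.00 under upper quartile scaling and 0.37 after correction for GC and length, and the call was lost without repeat 2 or without repeat 4.

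KRT80, a type II keratin found near desmosomes, had 2696, 2113, 2918 and 3776 in PHLac-low and 3918, 3179, 3000.04 and 6236 in PHLac-high. Repeats 1, 2 and 4 rose by 0.54 to 0.72 and repeat 3 by 0.04, giving a limma estimate of 0.47 (log2 change, SE 0.10, adjusted p = 0.00329). KRT10, the keratin of suprabasal epidermis, ran from 682 to 1115 in PHLac-low and from 829.6 to 1467 in PHLac-high (log2 change 0.30, SE 0.08, limma adjusted p = 0.00713). The call of KRT10 was lost under upper quartile scaling (0.07) and after correction for GC and length (0.14). KRT15, a keratin of basal cells and stem cell niches, was the one that fell, from 2073 ± 406 (SD, n = 4) to 1704 ± 453 (SD, n = 4) normalised counts (log2 change -0.30, SE 0.08, limma adjusted p = 0.0057), and it stood lower in all 4 pairs.

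KRT32, a hair keratin, was at 3.43, 2.46, 5.28 and 7.19 normalised counts in PHLac-low and 28.1, 10.1, 9.54 and 19.9 in PHLac-high, an estimated 2 to 24 reads. The fractions did not overlap, and the limma estimate was 1.62 (log2 change, SE 0.48, adjusted p = 0.00985). The call was lost without repeat 1. KRT32, KRT15 and KRT19 lie in this order in the type I keratin cluster of chromosome 17, with 46.4 kb and 4.73 kb between them, and moved by 1.62, -0.30 and 0.23. Per kilobase, KRT19 stood at 32.4 ± 8.18 times KRT15 in PHLac-low and 48.1 ± 18.6 times in PHLac-high, with overlapping ranges but a higher ratio in each pair.

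Of the 7 actin filament genes, 4 were higher and 3 lower, against 58.7% and 41.2% of all listed genes. Their median log2 change of 0.19 became -0.03 under upper quartile scaling, and that of all listed genes went from 0.25 to 0.02. Under that scaling 2 had a positive estimate and 5 a negative one, beside 1984 and 1682 of the 3666 listed genes. ACTA2, smooth muscle alpha actin, had 279.6, 251, 233 and 154 normalised counts in PHLac-low and 132, 138, 113 and 79.4 in PHLac-high. It was about halved in each pair, the fractions did not overlap, and it fell 1.97-fold (log2 change -0.98, SE 0.12, limma adjusted p = 0.000301). ACTBL2, an intronless actin gene, was at 3.43, 7.39, 2.4 and 6.16 in PHLac-low and 38.6, 33.4, 20.3 and 6.62 in PHLac-high, an estimated 4 to 33 reads. Repeats 1 to 3 rose by 2.04 to 3.16 on the log2 scale and repeat 4 by 0.09, so that the fractions overlapped, and the limma estimate was 1.98 (log2 change, SE 0.55, adjusted p = 0.00808), or 2.61 on the log2 scale without repeat 4.

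The tropomyosins moved apart. TPM1 had 659, 640.04, 680.03 and 914 normalised counts in PHLac-low and 579.9, 493, 453 and 675 in PHLac-high. Each pair fell although the fractions overlapped, and the limma estimate was -0.40 (log2 change, SE 0.09, adjusted p = 0.0039). TPM4 ran from 14057 to 19949.9 in PHLac-low and from 15726 to 22764 in PHLac-high, with a limma estimate of 0.20 (log2 change, SE 0.05, adjusted p = 0.00455), which is -0.04 relative to the median of the table and -0.02 under upper quartile scaling. Per kilobase TPM4 stood at 34.6 ± 3.99 times TPM1 in PHLac-low and 52.4 ± 4.79 times in PHLac-high, and the 4 ratios of each fraction did not overlap. That ratio does not depend on how the libraries are scaled.

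ACTN4, a non-muscle alpha actinin, ran from 23796 to 31345 in PHLac-low and from 17646 to 30559 in PHLac-high (log2 change -0.23, SE 0.07, limma adjusted p = 0.00947). Its call was lost after correction for GC and length (-0.06). ACTR3, the Arp3 subunit of Arp2/3, ran from 7441 to 11126 in PHLac-low and from 8472 to 13673 in PHLac-high (log2 change 0.19, SE 0.05, limma adjusted p = 0.00815), and its estimate was -0.03 under upper quartile scaling. ACTRT3, an actin-related protein of germ cells, had 245, 219, 199.98 and 212 in PHLac-low and 279, 314, 246 and 409 in PHLac-high. The fractions did not overlap, by 245 against 246, and the limma estimate was 0.49 (log2 change, SE 0.14, adjusted p = 0.00953). That call was lost under upper quartile scaling and after correction for GC and length.

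Of the 6 unconventional myosins, 3 were higher and 3 lower, against 58.7% and 41.2% of all listed genes. Their median log2 change was -0.23, and that of all listed genes was 0.25. The class I myosins, single-headed motors that join membranes to actin, were on both sides. MYO1E, which acts in endocytosis, had 1169, 1092, 1290.05 and 1428 normalised counts in PHLac-low and 1632, 1748, 1851 and 2154 in PHLac-high. MYO1D had 326, 395, 363 and 301 in PHLac-low and 165, 211, 122 and 106 in PHLac-high. Each gene separated the fractions without overlap, in opposite directions, with limma estimates of 0.57 (log2 change, SE 0.07, adjusted p = 0.000214) for MYO1E and -1.24 (log2 change, SE 0.15, adjusted p = 0.000242) for MYO1D, a fall of 2.36-fold. Per kilobase, MYO1E stood at 2.35 ± 0.523 times MYO1D in PHLac-low and 8.62 ± 3.51 times in PHLac-high, again without overlap. The GC contents of MYO1E and MYO1D were 47.6% and 52.1%, and both remained past the threshold after correction for GC and length (0.37 and -1.29).

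MYO10, the motor of filopodial tips and the unconventional myosin with the highest level per kilobase, had 9151, 8471, 6093 and 9903 normalised counts in PHLac-low and 10839.9, 9162, 8441 and 15348 in PHLac-high. It was higher in each pair, by 0.11 to 0.63 on the log2 scale (log2 change 0.36, SE 0.08, limma adjusted p = 0.00402), and no longer passed under upper quartile scaling (0.14). MYO5A, a carrier of organelles such as melanosomes, ran from 835 to 1239 in PHLac-low and from 982 to 1410.03 in PHLac-high (log2 change 0.26, SE 0.07, limma adjusted p = 0.00721), and its estimate was -0.02 after correction for GC and length. MYO15B had 484, 929, 897 and 288 in PHLac-low and 311, 659, 643 and 111 in PHLac-high. Each pair fell, repeat 4 by 1.36 and the others by 0.48 to 0.64 on the log2 scale (log2 change -0.74, SE 0.15, limma adjusted p = 0.00242). The fractions overlapped, and repeat 4 was the lowest in both.

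**Figure D3:**
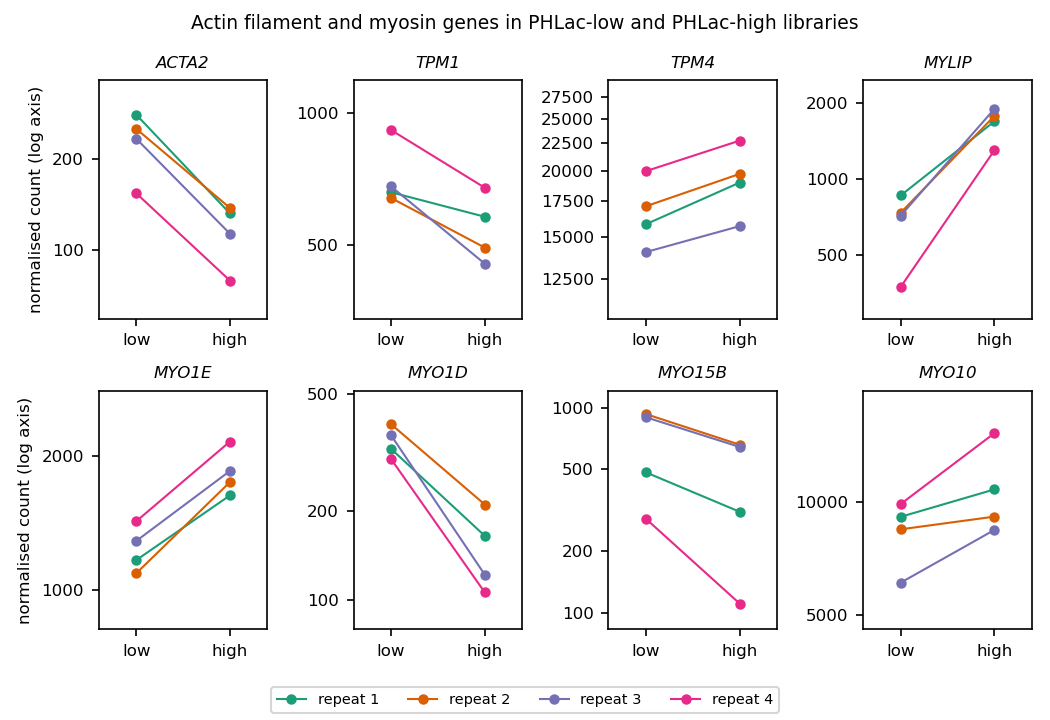
Normalised counts of ACTA2, TPM1, TPM4, MYLIP, MYO1E, MYO1D, MYO15B and MYO10 in PHLac-low and PHLac-high (log axis), 1 line per repeat. The lines of ACTA2, TPM1, MYO1D and MYO15B fall in all 4 repeats and those of TPM4, MYLIP, MYO1E and MYO10 rise. The rise of TPM4 is below the median of all listed genes and turns to -0.02 under upper quartile scaling.

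The only class II myosin heavy chain symbol in the table was MYH16, annotated in humans as a pseudogene. It had 34.3, 52.9, 47 and 114 normalised counts in PHLac-low and 81.8, 90.2, 59.6 and 185 in PHLac-high, higher in each pair with overlap (log2 change 0.76, SE 0.19, limma adjusted p = 0.00612). MYLK2, the skeletal muscle kinase of myosin light chains, was at 7.72, 0, 5.28 and 19.5 in PHLac-low and 32.7, 12.2, 23.9 and 55.6 in PHLac-high. The value of 0 allows up to 3 reads, or an estimated 3.69 normalised counts, by counting error alone. MYLK2 was higher in each pair with overlap (log2 change 2.28, SE 0.46, limma adjusted p = 0.00238), from at most an estimated 42 reads in any library. Its log2 change was 3.17 with a pseudocount of 0.1 in place of 1 and 1.80 without repeat 2, which holds the library at 0, so its size is poorly fixed. MYL5, a regulatory-type light chain, ran from 431 to 673 in PHLac-low and from 270.1 to 540.4 in PHLac-high (log2 change -0.38, SE 0.10, limma adjusted p = 0.00767), and after correction for GC and length its change was -0.03. MYLIP had 861, 736, 717 and 375 normalised counts in PHLac-low and 1691, 1776, 1893 and 1300.1 in PHLac-high. All PHLac-high values lay above all PHLac-low values, and the rise was 2.56-fold (log2 change 1.36, SE 0.12, limma adjusted p = 8.86e-05), the largest rise among members with a mean above 100 normalised counts.

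Much of the variation of the members lay between repeats, not between fractions. The repeat accounted for a median of 64.1% of the sum of squares of a member and 77.6% for the 7 alpha and beta tubulins, against 42.0% over all listed genes. The sort fraction accounted for 31.2%, 16.3% and 50.6% in the same order. KIF18A and TUBA1C were at the repeat end, with 92.3% and 91.4% between repeats. TUB, DNAH11, KIFC2 and TUBGCP6 were at the other end, with 87.8%, 87.0%, 86.4% and 85.3% between fractions. Repeat 4 was the highest of the 4 repeats in both fractions for 22 of the 45 members (48.9%) and for 5 of the 7 tubulins, against 28.5% of the listed genes. Repeat 4 was also highest in both fractions for ANLN, a cytokinesis scaffold (8897 and 13364 normalised counts, the other libraries 2918 to 6668), whereas AURKA, a mitotic kinase, was highest in repeat 1 (8055 and 18428). These are the 2 of 32 G2/M genes in the table. The part of cell cycle stage in the tubulin values was not tested.

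**Figure D4:**
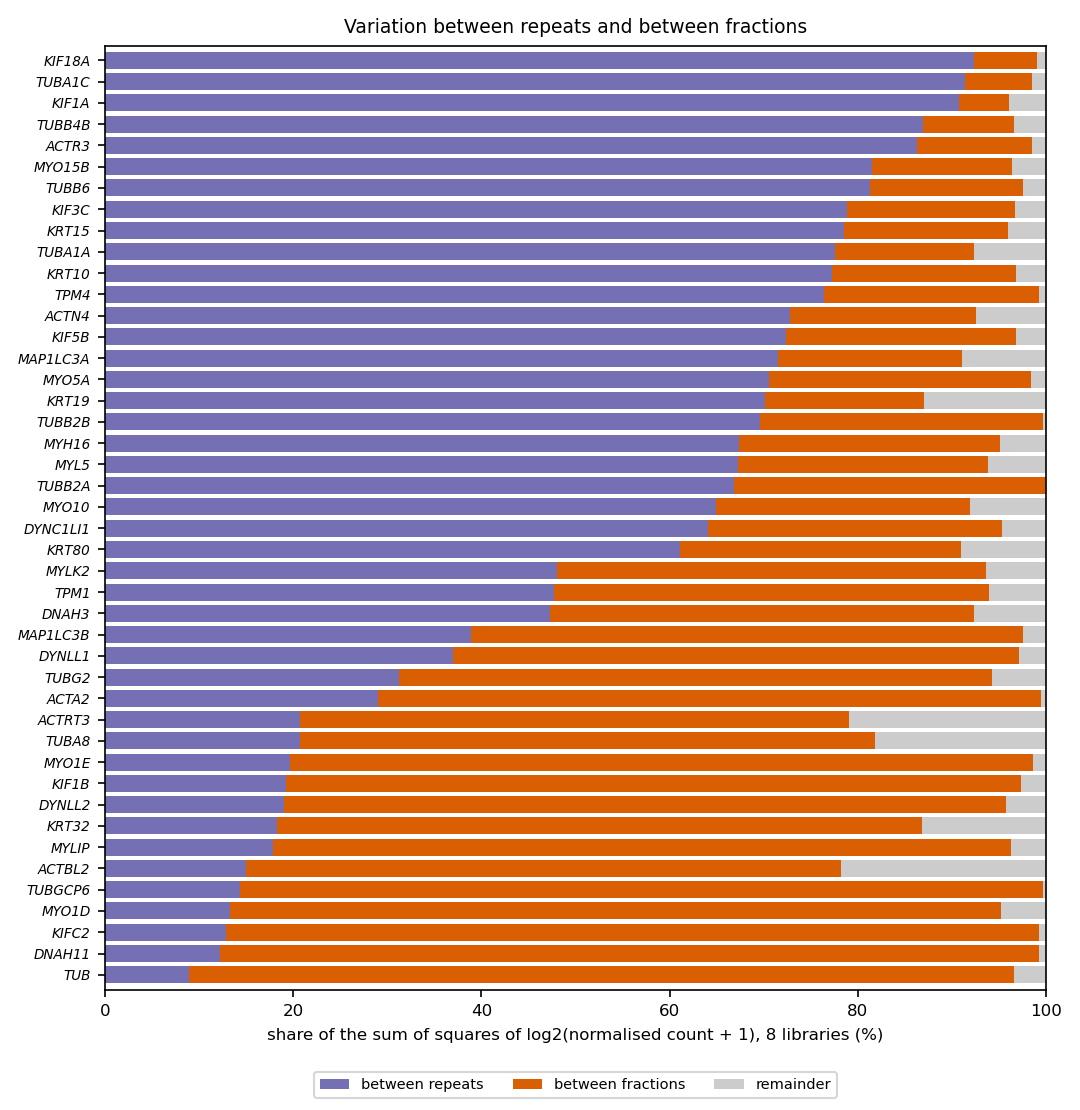
Share of the sum of squares of log2(normalised count + 1) over the 8 libraries that lay between repeats, between fractions and in the remainder, for 44 of the 45 genes, sorted by the share between repeats. KIF18A and TUBA1C vary almost wholly between repeats (92.3% and 91.4%), and TUB, DNAH11, KIFC2 and TUBGCP6 mostly between fractions.

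Regulators of these filaments that are not members were described by lists. Of 65 microtubule regulators, 14 are in the table, 9 higher and 5 lower, against 58.7% and 41.2% of all listed genes. Their median log2 change was 0.24, next to 0.25 for all listed genes. The plus-end binding protein MAPRE1 was higher (limma log2 change 0.35 ± 0.05, SE, as for the genes after it), as were the linker CLIP1 (0.67 ± 0.10) and the minus-end proteins CAMSAP1 (0.48 ± 0.07) and CAMSAP2 (0.34 ± 0.06), while CAMSAP3 of the same family was lower (-0.37 ± 0.10). The tubulin acetyltransferase ATAT1 and the tubulin deacetylase HDAC6 were both lower (-0.41 ± 0.11 and -0.28 ± 0.06). Of the tubulin folding cofactors, TBCA (0.19 ± 0.06) and TBCC (0.40 ± 0.12) were higher, and TBCA was at -0.03 under upper quartile scaling.

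Of 82 actin regulators, 17 are in the table, 12 higher and 5 lower, against 58.7% and 41.2% of all listed genes, with a median of 0.29. Ezrin (EZR), which ties actin to the plasma membrane, had the largest rise (0.73 ± 0.05), and supervillin (SVIL), the coronin CORO1C and the small GTPase RHOB were also higher (0.59 ± 0.09, 0.42 ± 0.05 and 0.50 ± 0.07). The bundling protein fascin (FSCN1), the severing protein gelsolin (GSN) and filamin C (FLNC) were lower (-0.53 ± 0.12, -0.44 ± 0.09 and -0.37 ± 0.11). Of 30 genes listed as targets of serum response factor and its MRTF partners, 10 are in the table. Of these, 4 were higher and 6 lower, against 58.7% and 41.2% of all listed genes, with a median of -0.30. The members ACTA2 and TPM1 are 2 of the 10. FHL2 was higher (0.69 ± 0.09) and JUNB and FHL1 were lower (-0.93 ± 0.11 and -0.41 ± 0.10).

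Of 29 other intermediate filament genes and linkers, 9 are in the table, with a median of 0.26. Of the 9, 5 were higher and 4 lower, against 58.7% and 41.2% of all listed genes. Nestin (NES), an intermediate filament of progenitor cells, was lower (-0.95 ± 0.10), and its filament partner synemin (SYNM) was higher (0.57 ± 0.08). The desmosomal plaque genes PKP2 and JUP were both lower (-1.40 ± 0.14 and -0.88 ± 0.09), and IFFO2, an intermediate filament family orphan, was higher (0.95 ± 0.12). Of 8 mesenchymal markers, the transcription factor SNAI2 was higher (2.09 ± 0.19) and the matrix protein SPARC lower (-0.83 ± 0.14). These lists cover only genes the authors called different, so a count of members in the table says nothing on genes outside it.

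Across the members, those that were higher had a median GC content of 50.5% in their longest coding transcript and those that were lower 56.3%. In all listed genes the medians were 46.6% and 56.8%, so the same difference runs through the table. After correction of each library for GC content and length, 18 members were higher and 12 lower past the threshold. Of the 3666 listed genes, 2207 passed in either direction. The median log2 change was then 0.05 for the members and 0.04 for the listed genes with a transcript. The correction was fitted on these selected genes only, so it can also remove differences between the fractions that run with GC content. Whether GC content made any call was not tested. TUBB2A, TUBB2B, MYO1D, DNAH11, ACTA2, MYLIP, DYNLL1 and MAP1LC3B were among the members that kept both their direction and their call under upper quartile scaling and under that correction. Beside the reversals of DYNC1LI1, ACTR3, TPM4 and MYO5A, the calls lost under upper quartile scaling were those of TUBA1A, TUBA1C, TUBB4B, TUBB6, KIF18A, KIF5B, KRT10, KRT19, ACTRT3, MYO10 and MYO5A. Those lost after correction for GC and length were TUBA1A, MAP1LC3A, KIF18A, KIF1A, KIF3C, KIF5B, KRT10, ACTN4, ACTRT3, TPM4, MYO10 and MYL5. In the authors' deposited table, the log2 fold change of TUBB2A was 1.08 and that of MYO1D was -1.23.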

How the data were processed

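Messenger RNA of MIA PaCa-2 cells was sequenced in 4 PHLac-low and 4 PHLac-high libraries, grouped and paired by the fraction and repeat number in the sample titles. The mRNA fraction was selected and the second strand marked with dUTP, per the labels' protocols. The submitters' processing notes name STAR, SAMtools, Subread, DESeq2 and the build hg38. Their versions, settings and the strand rule of counting are not given in the sources used here. The authors deposited 1 table of 3666 genes with, per library, a signal of normalised read counts, a log2 fold change and an adjusted p-value that nowhere exceeds 0.05. Every library has 1 smallest step of which 100% of its values are whole multiples (tolerance 0.01), which gave size factors of 0.755 to 2.09. In 4 of the 8 libraries too few low values were present to check that the step is 1 read, so size factors and read numbers are estimates and no count test was run. Depth outside the listed genes is unknown.

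Limma (3.58.1, R 4.3.3) with a mean-variance trend was fitted over all 3666 genes on log2(normalised count + 1), with the repeat as a block and Benjamini-Hochberg adjustment at 0.05. This scale understates changes of low counts. Deviations from the group means ran together in libraries of the same repeat (correlations across genes of 0.534 to 0.763, against at most 0.272 for other pairs), and the series description states the pairing. Because the authors selected these genes on the same libraries, the calls are not independent evidence. The members, the lists and the classes were chosen with earlier results of these data known. Values of every library are given for the 24 members with the largest absolute log2 change among those with the same sign in all repeats, and for the member with the highest mean of each class with at least 3 members, 29 in all. Of these, 1 is not reported here and is left out of the figures, while the counts and medians include it. The longest coding transcript of GENCODE release 29, found for 3520 genes (96.0%), gave length, GC content and shared 75-base windows. GC and length were corrected per library with a lowess curve (span 0.3). Promoter motifs were matched in RefSeq windows on GRCh38.p14, and the cAMP response element was added after the TUBB2A sequence had been read. The limma script was tested on simulated data. Alternatives were no block, each repeat left out, a pseudocount of 0.1, upper quartile scaling, a mean of at least 100 normalised counts, minimum log2 changes of 0.5 and 1, and the GC and length correction.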

Additional observations from a re-analysis of the deposited data

Results flagged for a closer look

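In 4 of 58 groups of 4 values, formed by the 29 genes with values in every library and the 2 fractions, the extreme library lay far from the other 3: its gap to the nearest, divided by the range of the group, exceeded Dixon's 95% critical value for 4 samples. About 2.9 such groups are expected by chance. KIF1B in the PHLac-high library of repeat 1 was high at 5838 normalised counts (ratio 0.831). KIFC2 in PHLac-high of repeat 3 was high at 1125 (ratio 0.887), and DNAH11 in the same library was low at 386 (ratio 0.944). TPM1 in PHLac-low of repeat 4 was high at 914 (ratio 0.854). Each of these genes kept 1 direction over its 4 pairs.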

How the results depend on the processing

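Without the replicate block, limma called 1135 listed genes, 9 members higher and 6 lower, and 30 members lost the call. With the block the counts were 3663, 28 and 17. Upper quartile scaling gave 2360, 14 and 17, with a members' median of 0.0334. The GC and length correction with the block gave 2207, 18 and 12, with a median of 0.0462. A minimum change of 0.5 gave 1424, 12 and 8, and a minimum of 1 gave 406, 6 and 1. Leaving out 1 repeat gave 3468 to 3627 listed genes, 26 to 28 members higher and 16 or 17 lower, and a members' median of 0.24 to 0.29; the lost calls were KRT32 without repeat 1, KIF1A, DYNC1LI1 and KRT19 without repeat 2, and KIF1A and KRT19 without repeat 4. Directions reversed for DYNC1LI1 (-0.0165), ACTR3 (-0.0333) and TPM4 (-0.021) under upper quartile scaling and for DYNC1LI1 (-0.0576), ACTR3 (-0.00353) and MYO5A (-0.0238) under the GC and length correction. The median of the actin filament genes reversed to -0.0333 under upper quartile scaling, -0.0212 with a mean of at least 100 and -0.00353 under the GC and length correction. That of the kinesins, -0.00155, lay between -0.0282 and 0.0334 when 1 repeat was left out. The cause of these shifts was not tested. A pseudocount of 0.1 left all 45 member calls as they were and moved MYLK2 from 2.28 to 3.17. TUBA8, KRT32, ACTBL2 and MYLK2 rest on at most an estimated 48 reads per library. The edgeR and DESeq2 fits on recovered reads were not run, since 4 libraries held too few low values to check the recovery. The minimum of 1, and the GC and length correction of the medians, single members and the count of listed genes, were chosen after seeing the data.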
